A study of Mus musculus with 36 samples.

Results

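Tubulin isotypes are described here through 10 mouse genes, the 7 β-tubulins Tubb3, Tubb2a, Tubb2b, Tubb4a, Tubb4b, Tubb5 and Tubb6 and the 3 α-tubulins Tuba1a, Tuba1b and Tuba1c. They were taken by gene symbol from a count table of 55487 genes, with no cut on a measured value. The list was chosen with earlier results of these data known. All 10 passed the filter on low counts in every comparison. RNA-seq had been run on microdissected retina, unmyelinated optic nerve (UON, the short stretch behind the eye before myelin begins) and myelinated optic nerve (MON, the first myelinated stretch behind the discarded transition zone). The mice were wild-type C57BL/6 animals with no transgene, aged 2 to 4 months. One set of mice was naïve in both eyes. A second set had a unilateral optic nerve (ON) crush with forceps and was collected 3 days (3D) or 2 weeks (2W) later. In the third set, intraocular pressure was raised in 1 eye by injecting microbeads into the anterior chamber, the glaucoma model, and tissue was taken at 3D, 2W or 6 weeks (6W). Each of the 18 groups of tissue, treatment and time held 2 libraries. Of these, 1 came from the pooled RNA of 2 female mice and 1 from that of 2 male mice, so n = 2 pools per group throughout. The mean difference between female and male pools was fitted as a term. The p-values therefore measure how far that difference varied between the groups of a fit, and not the spread between single mice. The 3 tissues of a treatment and time came from the same mice, and both injuries were compared with the same naïve libraries.

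α- and β-tubulin form the heterodimers that build microtubules, the tracks for axonal transport and the scaffold of axons, glial processes and the mitotic spindle. The isotypes are separate genes whose proteins are nearly alike along most of their length and differ chiefly in the acidic tail at the carboxyl end, where tubulin is modified and where motors and microtubule-associated proteins dock. Tubb3 is the β-tubulin used as a marker of neurons and, in the retina, of retinal ganglion cells (RGCs), the neurons whose axons make up the ON. Tubb4a is abundant in myelinating oligodendrocytes, Tubb5 and Tuba1b are widely expressed and high in dividing cells, and Tuba1a is the main α-tubulin of developing neurons.

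The sequences are shown because the tail, and how far each transcript can be told from its relatives, set what a count for an isotype means. The last 60 coding bases before the stop codon, read 5′ to 3′ on the coding strand from GENCODE M21 transcripts (GRCm38), encode the tail.
Tubb3: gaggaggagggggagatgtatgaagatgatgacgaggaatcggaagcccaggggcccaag
Tubb4a: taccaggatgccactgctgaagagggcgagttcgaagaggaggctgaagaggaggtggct
Tubb5: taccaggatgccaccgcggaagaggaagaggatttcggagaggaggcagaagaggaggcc
Tubb2a: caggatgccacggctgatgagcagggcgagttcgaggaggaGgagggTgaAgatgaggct
Tubb2b: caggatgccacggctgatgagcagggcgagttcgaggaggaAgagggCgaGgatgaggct
Capitals mark the bases that differ between Tubb2a and Tubb2b (3 of 60), compared in register from the stop codon. Tubb3, Tubb4a and Tubb5 are shown without capitals and were not aligned to each other. At the other end of the coding sequence, the first 12 bases are atgagggagatc in Tubb3 and atgcgtgagtgc in all 3 α-tubulins. The coding ends shown lie at chr8:123421620-123421679 (Tubb3), chr17:57080693-57080752 (Tubb4a), chr17:35834985-35835044 (Tubb5), chr13:34074471-34074530 (Tubb2a) and chr13:34127474-34127533 (Tubb2b). The opening codons encode the amino-terminal residues read during tubulin autoregulation, the decay of tubulin mRNA that follows a rise in free tubulin.

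All 10 genes have 4 exons in the transcript used, and their positions in GRCm38 show where near-copies sit together. Tuba1b (chr15:98931425-98934565, minus strand), Tuba1a (chr15:98949837-98953703, minus strand) and Tuba1c (chr15:99029891-99038110, plus strand) are neighbours, as are Tubb2a (chr13:34074274-34078007) and Tubb2b (chr13:34126748-34130466), both on the minus strand. Tubb4a (chr17:57080066-57087782) and Tubb5 (chr17:35833921-35838306) lie on the minus strand of chromosome 17, Tubb4b (chr2:25222160-25224702) on the minus strand, and Tubb3 (chr8:123411424-123422015) and Tubb6 (chr18:67390717-67402749) on the plus strand. Coding identity was 98.3% between Tuba1a and Tuba1b, 97.9% between Tuba1b and Tuba1c and 96.5% between Tubb2a and Tubb2b, against 80.2% to 85.7% for the other β-tubulin combinations. Of the 150-base windows in each transcript, the share that also occurs in a transcript of another gene was 54.7% for Tuba1a, 57.9% for Tuba1b, 46.7% for Tuba1c, 27.9% for Tubb2a, 20.1% for Tubb2b and 16.8% for Tubb4b. It was 0% for Tubb3, Tubb4a, Tubb5 and Tubb6. Counts of the 3 α-tubulins, of Tubb2a, Tubb2b and of Tubb4b, which shares its windows with the pseudogene Tubb4b-ps1, could therefore have been split between copies and are uncertain individually.

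**Figure D1:**
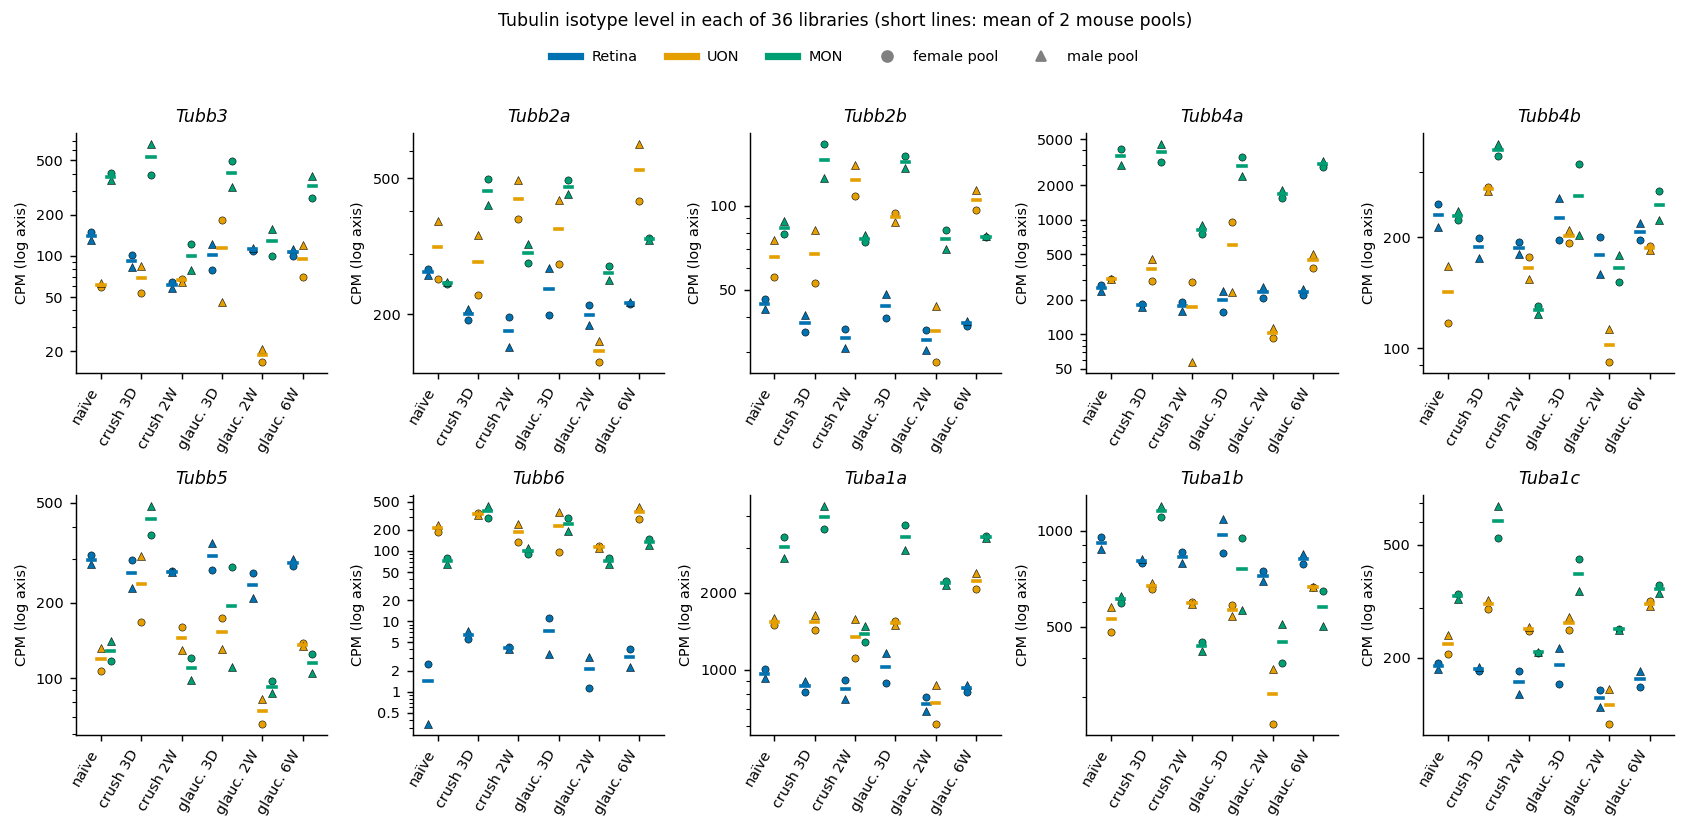
Level of each isotype in every library, in CPM (counts scaled to library size, log axis), by treatment and time (x axis), tissue (colour) and pool (circle, female; triangle, male), with a short line at the mean of 2 pools. Among naïve tissues Tubb4a and Tubb3 stand highest in MON, over all groups Tubb6 lies between 0.346 and 11.1 CPM in the 12 retina libraries and between 64.4 and 436.5 CPM in the 24 nerve libraries, and all 10 isotypes lie below naïve UON in the 2W glaucoma group.

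Library depth was 16.2 M to 78.1 M counts (M for mega). Defining markers were highest where the labels place them, with 13 photoreceptor genes summing to 23900 to 30500 FPKM (fragments per kilobase of transcript, scaled to library size) in retina and 3.31 to 118 FPKM in the nerve, and 11 oligodendrocyte genes summing to 49200 and 57000 FPKM in naïve MON, 8340 and 11700 in naïve UON and 43.3 and 46.2 in naïve retina. Naïve UON, labelled as lying before myelin begins, was therefore not free of oligodendrocyte RNA. Its 8 astrocyte markers summed to 6440 and 7170 FPKM. The source of the oligodendrocyte RNA in UON was not tested. UON libraries varied in this oligodendrocyte sum from 1300 FPKM (2W crush, male) to 18300 FPKM (3D glaucoma, female). Values are given below as CPM for one gene between libraries and as FPKM, which divides by gene length, between genes. In bulk tissue, fewer cells of a type and less RNA per cell cannot be told apart.

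Naïve tissues differed in which isotypes dominated. In naïve MON, Tuba1a (1281 ± 39.4 FPKM, mean ± SD, n = 2) and Tubb4a (1216 ± 137) were level with each other and made up 37.9% ± 0.276 and 35.9% ± 3.2 of the summed FPKM of the 10 genes. In naïve UON, Tuba1a alone made up 44.6% ± 2.76, with Tuba1b at 15.8% ± 0.375 and Tubb2a at 10.1% ± 1.71. In naïve retina, Tuba1a (538.7 ± 26.7 FPKM) and Tuba1b (531.2 ± 26) overlapped and made up 29.7% ± 0.0495 and 29.3% ± 0.0636. The order below them also changed with tissue. MON continued with Tuba1b (270.9 FPKM), Tubb3 (156), Tuba1c (128.4), Tubb2a (118.1) and Tubb4b (110.8), of which the last 3 overlapped, and retina with Tubb2a (166.4), Tubb4b (145.2), Tubb5 (126.3) and Tubb4a (115.4), whose pools did not overlap. In UON, Tubb4a (108 FPKM) lay above Tubb6 (94.4) and Tuba1c (89.3), which overlapped each other. Tubb3 was eighth in retina at 75.8 ± 5.94 FPKM and ninth in UON at 26.0 ± 0.398 FPKM, overlapping Tubb2b there (23.7 ± 4.09).

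**Figure D2:**
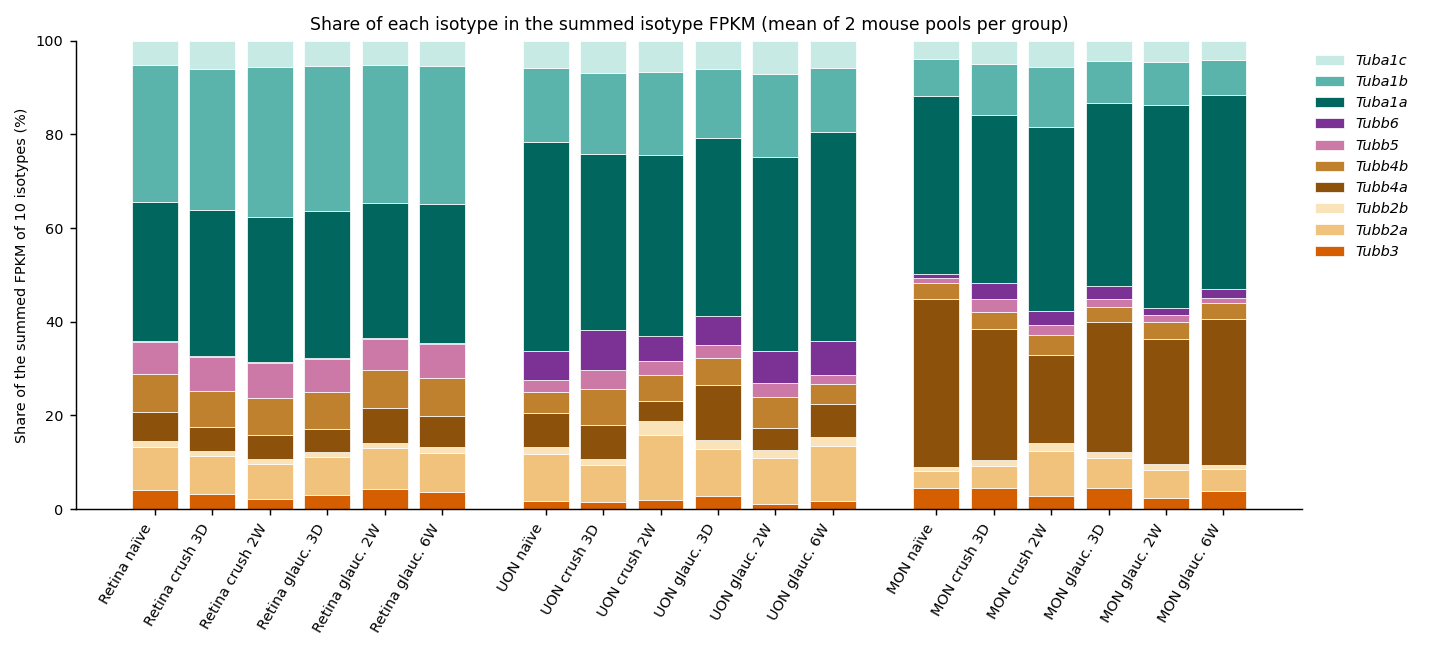
Share of each isotype in the summed FPKM of the 10 genes (y axis, %), as the mean of 2 pools, for the 18 groups (x axis). α-tubulins (green) fill more than the β-tubulins in retina and UON, while Tubb4a (dark brown) fills 35.9% of naïve MON and 18.8% of MON 2W after crush.

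The ratio of summed α- to summed β-tubulin FPKM was 0.949 and 1.03 in the 2 naïve MON pools, 1.82 and 2.12 in UON and 1.78 and 1.81 in retina. Within the isotypes described here, MON was therefore the tissue where the β sum matched the α sum, and Tubb4a supplied most of the β sum there. Tubulins outside this set, such as Tuba8, were left out of both sums, so the ratio does not cover all α- and β-tubulin transcripts. After crush the MON ratio was 1.02 and 1.13 at 3D and 1.36 in both pools at 2W, where naïve and 2W pools did not overlap.

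Tubb4a and Tubb3 separated the nerve regions. Tubb4a measured 4104 and 3008 CPM in the female and male pools of naïve MON, 301 and 307 CPM in naïve UON and 270 and 241 CPM in naïve retina. The UON and retina values lay close together and the MON values lay far above both. Tubb4a was 11.8-fold lower in UON than in MON (log2 fold change -3.56 ± 0.28 SE, adjusted p = 0.00139, edgeR quasi-likelihood test with Benjamini-Hochberg adjustment over all genes tested). It was 14.5-fold higher in MON than in retina (3.85 ± 0.28, edgeR adjusted p = 8.97e-05). The oligodendrocyte marker sums given above were highest in MON, lower in UON and lowest in retina, and their part in the Tubb4a difference was not tested.

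Tubb3 measured 402 and 358 CPM in naïve MON, 149 and 132 CPM in retina and 58.8 and 63.8 CPM in UON, so that no pool of 1 tissue overlapped another tissue. It was 6.3-fold lower in UON than in MON (log2 fold change -2.66 ± 0.21, edgeR adjusted p = 0.00141) and 2.83-fold higher in MON than in retina (1.50 ± 0.21, edgeR adjusted p = 0.00148). UON lay 2.23-fold below retina (-1.16 ± 0.20, edgeR adjusted p = 0.00429). The 12 RGC markers, which leave out Tubb3, were instead highest in retina. They summed to 619 and 561 FPKM in retina, 76.1 and 104 FPKM in UON and 59.9 and 51.2 FPKM in MON.

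Tubb6, a broadly expressed β-tubulin outside neurons, was lowest of the 10 in retina. The female and male naïve retina pools held 123 and 15 counts (2.46 and 0.346 CPM), against 184 and 236 CPM in UON and 79.1 and 65.7 CPM in MON. It was higher in UON than in retina (log2 fold change 7.46 ± 0.77, edgeR adjusted p = 0.000337) and in MON than in retina (5.90 ± 0.72, edgeR adjusted p = 0.000838). The size of both differences was loosely fixed and ranged from 6.41 to 9.31 and from 4.90 to 7.80 on the log2 scale when single libraries were left out. Fibroblast markers, 7 genes, summed to 740 and 818 FPKM in UON, 274 and 360 in MON and 21 and 12.9 in retina. The 8 astrocyte markers summed to 6440 and 7170 FPKM in UON, 4660 and 3830 in MON and 94.9 and 100 in retina. Both sums followed the same order of tissues as Tubb6, and their part was not tested.

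Tubb5 went the other way, at 310 and 285 CPM in retina, 107 and 132 CPM in UON and 117 and 140.5 CPM in MON. Retina stood above both nerve regions, which overlapped (log2 fold change -1.29 ± 0.22 for UON over retina, edgeR adjusted p = 0.00372, and -1.15 ± 0.22 for MON over retina, edgeR adjusted p = 0.00695). Tuba1a was higher in MON (3311 and 2725 CPM) than in retina (1004 and 924 CPM; 1.71 ± 0.26, edgeR adjusted p = 0.00227) and measured 1492 and 1587 CPM in UON. Smaller differences passed the adjusted p with a fold below 2 for Tubb2b (0.96 ± 0.22, edgeR adjusted p = 0.0145) and Tuba1c (0.88 ± 0.20, edgeR adjusted p = 0.0156) in MON over retina and for Tuba1b in UON over retina (-0.76 ± 0.23, edgeR adjusted p = 0.0411). Tubb2a and Tubb4b passed in no pair of tissues, with lowest edgeR adjusted p of 0.423 and 0.0655.

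A call below means an edgeR adjusted p under 0.05 with a log2 fold change beyond 1 in size. By that rule 2 of the 10 isotypes were called for UON over MON, where 9.63% of all genes tested were called, 3 for UON over retina, where 31.7% were, and 5 for MON over retina, where 27.6% were. On the adjusted p alone the counts were 2, 4 and 7, against 10.4%, 35.7% and 31% of all genes. Counts of isotypes at an unadjusted p below 0.05, given further on, have no such share beside them. The share of all genes at that level was not tabulated, so those counts do not show that the isotypes stood out. The median log2 difference of the isotypes was -0.49, 0.27 and 0.92, against -0.06, -0.17 and 0.00 over all genes. The call for Tubb3 in UON over retina was lost without the female retina pool or the female UON pool (edgeR adjusted p up to 0.054) and in 1 fit over all 36 libraries (adjusted p = 0.0566). Tuba1a lost its MON over retina call without either retina pool (up to 0.0829), and Tubb5 lost its MON over retina call without the female retina pool (0.0875).

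Other genes of the microtubule system are given as counts of calls, to be read against the shares of all genes called, 27.6% for MON over retina, 9.63% for UON over MON and 31.7% for UON over retina. Among 24 microtubule-associated proteins, 11 were called higher and 7 lower in MON than in retina, led upward by Tppp (log2 fold change 3.97 ± 0.31, edgeR adjusted p = 0.000113), the polymerization-promoting protein of oligodendrocytes. Between the nerve regions 3 were higher and 5 lower in UON, the tau gene Mapt lying lowest (-2.94 ± 0.23, edgeR adjusted p = 0.00139). Of 11 destabilizing and severing genes, 4 were lower in UON than in MON, among them Stmn1 (-2.88 ± 0.24, edgeR adjusted p = 0.00151), a stathmin that sequesters tubulin dimers. Of 22 tested tubulin-modifying enzymes, 4 were lower in UON than in MON, including Sirt2, a tubulin deacetylase (-1.53 ± 0.22, edgeR adjusted p = 0.00689). Of 24 chaperone and autoregulation genes, 0 were called between UON and MON, and 3 were called higher and 1 lower in MON than in retina. Of the 8 other tubulins tested, 4 were lower and 0 higher in each nerve region than in retina, Tuba8 being lowest in MON over retina (-4.65 ± 0.78, edgeR adjusted p = 0.00373).

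**Figure D3:**
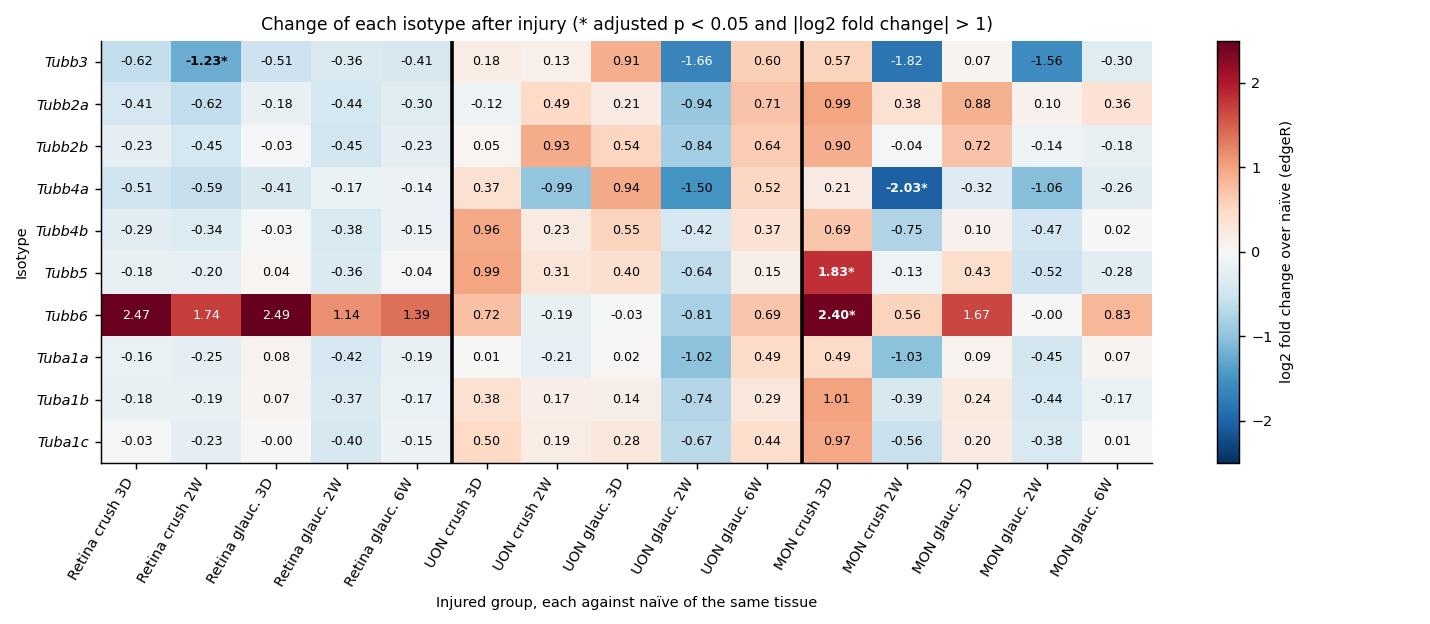
Log2 fold change of each isotype (rows) in every injured group over naïve tissue of the same kind (columns), from edgeR, with red for higher and blue for lower; an asterisk marks an adjusted p under 0.05 with a log2 fold change beyond 1. The 4 marked cells are Tubb5 and Tubb6 in MON 3D after crush, Tubb4a in MON 2W after crush and Tubb3 in retina 2W after crush.

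After ON crush, Tubb5 and Tubb6 were called higher in MON at 3D and Tubb4a lower at 2W, and no isotype was called at both times. At 3D all 10 isotypes had a mean above naïve MON. Tubb5 measured 373 and 487 CPM in the crush pools against 117 and 140.5 CPM in the naïve pools, a 3.55-fold rise (log2 fold change 1.83 ± 0.31, edgeR adjusted p = 0.0235). Tubb6 measured 294 and 436.5 CPM against 79.1 and 65.7 CPM, a 5.29-fold rise (2.40 ± 0.30, edgeR adjusted p = 0.0114). In both genes every crush pool lay above both naïve pools. The 2 calls among 10 isotypes stood beside 4.26% of all genes tested, and the isotypes' median log2 difference was 0.93 against 0.00 over all genes.

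A further 5 isotypes had an unadjusted p below 0.05 at MON 3D without passing the adjustment. They were Tubb2a (log2 fold change 0.99), Tubb2b (0.90), Tubb4b (0.69), Tuba1b (1.01) and Tuba1c (0.97), with edgeR adjusted p from 0.114 to 0.209. Tubb3 and Tubb4a, the isotypes most abundant in MON relative to the other tissues, measured 394 and 664 CPM and 3175 and 4585 CPM, overlapping the naïve pools. Markers of dividing cells moved at the same time, the sum of 12 cell cycle genes being 261 and 285 FPKM against 7.13 and 7.65 FPKM in naïve MON, and microglia and macrophage markers summed to 3570 and 4470 FPKM against 952 and 1420 FPKM. The 8 genes listed as housekeeping, such as Gapdh and Actb, summed to 3920 and 3890 FPKM against 2220 and 2560 FPKM in naïve MON. The part of these sums in the rise of Tubb5, Tubb6 or the other isotypes was not tested. Stmn2 (2.22 ± 0.48, edgeR adjusted p = 0.0485), a stathmin of growing axons, and the severing gene Fignl1 (4.75 ± 0.71, edgeR adjusted p = 0.0166) were the 2 of 11 destabilizing and severing genes called, while 0 of the modifying, chaperone, associated-protein and other tubulin genes were called by edgeR. The Tubb5 call held in 1 and the Tubb6 call in 2 of 4 fits that left out 1 library of the comparison, with edgeR adjusted p up to 0.151 and 0.0707. Tubb5 was lost without the male crush pool or either naïve pool and Tubb6 without either naïve pool, at log2 differences of at least 1.65 and 2.12.

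At 2W after crush Tubb4a in MON measured 744 and 891 CPM, below both naïve pools (4104 and 3008 CPM), a 4.09-fold fall (log2 fold change -2.03 ± 0.40, edgeR adjusted p = 0.0474). Tubb3 measured 122 and 79.2 CPM against 402 and 358 CPM, also with no overlap, and narrowly missed the adjusted threshold (-1.82 ± 0.38, edgeR adjusted p = 0.053). Tuba1a measured 1285 and 1480 CPM against 3311 and 2725 CPM (-1.03 ± 0.37, edgeR adjusted p = 0.221). The remaining 7 isotypes had log2 fold changes between -0.75 and 0.56. One isotype of 10 was called, where 2.72% of all genes were. DESeq2, the tool of the study, called 3 (Tubb4a, Tubb3 and Tuba1a), where it called 4.43% of all genes. The same 3 were called in 1 fit over all 36 libraries, where 2.36% were called. DESeq2 shares, here and below, are over every gene with any count (38991 in this fit). Shares for edgeR are over genes past the filter (19988 in this fit), so the bases differ. The share of Tubb4a in the isotype sum was 17.9% and 19.7%, against 38.2% and 33.7% in naïve MON.

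Oligodendrocyte markers in MON summed to 20300 and 24100 FPKM at 2W after crush against 57000 and 49200 FPKM in naïve tissue, and microglia and macrophage markers to 8070 and 4320 FPKM. Their part in the lower Tubb4a was not tested. At 3D after crush the oligodendrocyte sum was 36300 and 29300 FPKM while Tubb4a overlapped naïve. The Tubb4a call was lost without either naïve pool (edgeR adjusted p up to 0.224) and held without either crush pool. One chaperone gene, the prefoldin subunit Pfdn2, fell (-1.48 ± 0.26, edgeR adjusted p = 0.0376).

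The direct comparison of 2W with 3D in crushed MON gave a lower mean for all 10 isotypes, in both pools of each. Tubb3 differed most, at 394 and 664 CPM at 3D and 122 and 79.2 CPM at 2W (log2 fold change -2.39, edgeR adjusted p = 0.08), followed by Tubb4a (-2.24, 0.0985), Tubb5 (-1.95, 0.0743) and Tubb6 (-1.85, 0.0743). The edgeR fit called 0 of 10, where 0.075% of all genes were called. An unadjusted p below 0.05 was seen for 9, with no share of all genes at that level to set beside it. DESeq2 called 8 of 10 (all but Tubb2a and Tubb2b), where it called 2.72% of all genes, and 1 fit over all 36 libraries called 7, where 0.954% were called. In edgeR fits that left out 1 library, Tubb3 and Tubb5 passed in 4 of 4, with adjusted p up to 0.0449 and 0.0393. Without pool sex as a block, edgeR called 6 of 10 (Tubb3, Tubb4a, Tubb4b, Tubb5, Tubb6 and Tuba1c, with adjusted p from 0.036 to 0.0474). The cause of these changes in the calls was not tested.

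In retina, Tubb3 was the 1 isotype that edgeR called lower after crush. It measured 149 and 132 CPM in naïve retina, 101 and 82.6 CPM at 3D and 64.4 and 58.7 CPM at 2W after crush, with no overlap between the 3 groups. The 2W difference was 2.35-fold (log2 fold change -1.23 ± 0.12, edgeR adjusted p = 0.0202) and the 3D difference was -0.62 ± 0.12 (edgeR adjusted p = 0.319). One of 10 isotypes was called at 2W, where 0.313% of all genes were, and the call held in all 4 fits that left out 1 library. It was not called in 1 fit over all 36 libraries, whose spread estimate includes the nerve (adjusted p = 1, 0.0432% of genes called). The 12 RGC markers summed to 619 and 561 FPKM in naïve retina, 366 and 356 FPKM at 3D and 108 and 97 FPKM at 2W, and their part was not tested.

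At 2W after crush, 9 of the 10 isotypes lay below naïve retina in both pools, 6 of them at an unadjusted edgeR p below 0.05. Of the 9 isotypes other than Tubb3 in crushed retina, edgeR called 0. At 2W Tubb4a measured 190 and 161 CPM against 270 and 241 CPM (log2 fold change -0.59 ± 0.10, edgeR adjusted p = 0.106) and Tubb2a 197 and 160 CPM against 271 and 261 CPM (-0.62 ± 0.12, edgeR adjusted p = 0.128). Both were below naïve in each pool without being called. The 3 α-tubulins lay between -0.25 and -0.19. Tubb6 measured 5.69 and 7.29 CPM at 3D against 2.46 and 0.346 CPM, a difference called by DESeq2 (2.50, adjusted p = 0.00974, 1 of 10 isotypes and 0.338% of all genes) and not by edgeR (2.47 ± 0.76, adjusted p = 0.675, 0 of 10 isotypes called, 5 at an unadjusted p below 0.05, 0.0221% of all genes called). Its size rested on the naïve pools, with a log2 difference of 4.29 without the female naïve pool (edgeR adjusted p = 0.0156) and 1.29 without the male naïve pool, which held 15 counts (edgeR adjusted p = 0.793), and it was called in 1 of 4 such fits. The Tubb6 difference at 2W was 1.74 ± 0.74 on the log2 scale (edgeR adjusted p = 0.562). Among the partners, 2 microtubule-associated proteins fell at 2W, Tppp3 (-1.68 ± 0.14, edgeR adjusted p = 0.0106) and Map1a (-1.38 ± 0.17, edgeR adjusted p = 0.0379), and 2 stathmins fell, Stmn2 (-1.07 ± 0.14, edgeR adjusted p = 0.0475) and Stmn3 (-1.03 ± 0.11, edgeR adjusted p = 0.0234).

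In UON no isotype was called after crush. edgeR called 0 of 10 at 3D, with 2 at an unadjusted p below 0.05 and 0% of all genes called, and 0 of 10 at 2W, with 1 at an unadjusted p below 0.05 and 0.0281% of all genes called. DESeq2 also called 0 isotypes at both times, where it called 0.56% and 1.37% of all genes. Between 2W and 3D after crush, edgeR called 0 isotypes in UON and in retina (2 and 1 at an unadjusted p below 0.05, 0 in both by DESeq2), where 0.00468% and 0.0485% of all genes were called. At 3D Tubb4b measured 273 and 267 CPM against 117 and 167 CPM and Tubb5 167 and 309 CPM against 107 and 132 CPM, both above the naïve pools. The cell cycle sum was 291 and 210 FPKM there against 14.1 and 8.22 FPKM in naïve UON, and Tubb5 was not called (log2 fold change 0.99 ± 0.36, edgeR adjusted p = 1). At 2W Tubb2b measured 108 and 140 CPM against 55.7 and 75.6 CPM. Tubb4a in UON ranged within a group, at 289 CPM in the female and 57.5 CPM in the male 2W crush pool, where oligodendrocyte markers summed to 10400 and 1300 FPKM.

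**Figure D4:**
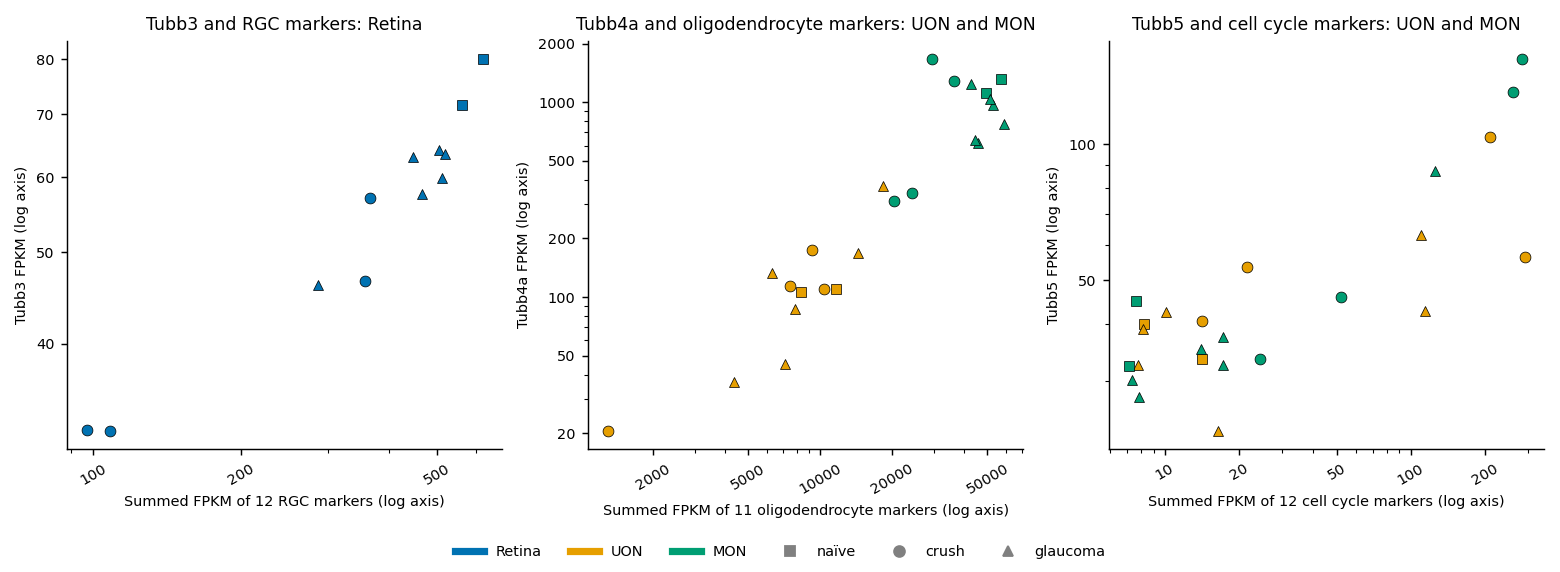
Left, Tubb3 against the summed FPKM of 12 RGC markers in 12 retina libraries; middle, Tubb4a against 11 oligodendrocyte markers, and right, Tubb5 against 12 cell cycle markers, each in 24 UON and MON libraries (all axes log, FPKM). Low Tubb3 and low Tubb4a lie at low marker sums, down to 32.4 FPKM of Tubb3 in retina 2W after crush and 20.7 FPKM of Tubb4a in 1 UON library, and the highest Tubb5 values, 130 and 154 FPKM, are in MON 3D after crush.

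Whether the response to crush differed between tissues was tested as an interaction, called on the adjusted p alone. These joint fits had 1 common term for pool sex and none for the mouse pool that both tissues shared. Beyond sex, tissues of the same mice were thus treated as independent. Tubb5 at 3D differed between MON and retina by 1.97 ± 0.33 on the log2 scale (edgeR adjusted p = 0.0324), as it stood at 297 and 228 CPM in crushed retina against 310 and 285 CPM in naïve retina. It was 1 of 10 isotypes called in that contrast, where 0.882% of all genes were. In this joint fit the difference in log2 change, MON minus retina, had a median of 1.03 over the 10 isotypes against -0.12 over all genes. For Tubb6 it was 0.17 (edgeR adjusted p = 0.982), and the fits within each tissue gave a log2 fold change of 2.40 in MON and 2.47 in retina. Tubb2a came next (1.36, edgeR adjusted p = 0.0564), and DESeq2, with a log2 difference beyond 1 also required, called Tubb5, Tubb2a, Tuba1b and Tubb2b, where it called 3.36% of all genes. The Tubb5 call held in 2 of 8 fits that left out 1 library (edgeR adjusted p up to 0.121) and was missed in 1 fit over all 36 libraries (0.0593). This was the 1 edgeR call among 150 values in 15 contrasts between tissues, of which 34 had an unadjusted p below 0.05 and DESeq2 passed 11 on the adjusted p. The share of all genes called by edgeR was 0.012% and 0% for UON against MON at 3D and 2W after crush, 0.0115% and 0.0689% for UON against retina, 0.622% for MON against retina at 2W and 0% in every glaucoma contrast. The difference in Tubb4a at 2W was not shown to differ between MON and retina (-1.51, edgeR adjusted p = 0.0917; DESeq2 adjusted p = 0.00111, 1 isotype and 2.47% of all genes called), nor that of Tubb3 at 2W between MON and retina (-0.665, edgeR adjusted p = 0.558). For UON against MON at 2W, Tubb3 differed by 1.94 (edgeR adjusted p = 0.196) and was the 1 isotype called by DESeq2, with 1.44% of all genes. DESeq2 also called Tubb6 for UON against MON at 3D after crush, where it called 0.677% of all genes. That log2 difference was -1.57 (DESeq2 adjusted p = 0.0335), against -1.64 by edgeR (edgeR adjusted p = 0.325). In glaucoma at 3D DESeq2 called Tubb2a for MON against retina (1.08, DESeq2 adjusted p = 0.0111), with 0.258% of all genes called. edgeR gave 1.11 there (edgeR adjusted p = 0.633).

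The glaucoma model gave no edgeR call for any isotype. Over the 9 comparisons with naïve tissue, 0 of 90 values were called, 25 had an unadjusted p below 0.05, DESeq2 called 3, and the share of all genes called by edgeR was 0% in UON and MON at every time and 0.00429%, 0% and 0.00858% in retina at 3D, 2W and 6W. The DESeq2 calls were all in MON: Tubb6 at 3D, where 1.09% of all genes were called, and Tubb3 and Tubb4a at 2W, where 1.26% were. Tubb6 in MON measured 296 and 191 CPM at 3D, 79.95 and 64.4 CPM at 2W and 148 and 122 CPM at 6W, against 79.1 and 65.7 CPM in naïve tissue. The 3D value lay above naïve in both pools (log2 fold change 1.67 ± 0.22, edgeR adjusted p = 0.261, DESeq2 adjusted p = 3.63e-08) and the 2W value overlapped it.

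Tubb3 in MON measured 496 and 318 CPM at 3D, 100 and 158 CPM at 2W and 264 and 385 CPM at 6W, so that only the 2W pools lay clear of naïve (402 and 358 CPM; -1.56 ± 0.34, edgeR adjusted p = 0.293, DESeq2 adjusted p = 0.00126). Tubb4a was likewise below naïve in both pools at 2W, at 1534 and 1803 CPM (-1.06 ± 0.28, edgeR adjusted p = 0.366, DESeq2 adjusted p = 0.00902) and 2901 and 3224 CPM at 6W. The oligodendrocyte sum at 2W was 45700 and 44500 FPKM, below the naïve 57000 and 49200 FPKM. In the female 3D pool, Tubb5 stood at 277 CPM and the cell cycle sum at 126 FPKM, and in the male 3D pool at 110 CPM and 17.2 FPKM.

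In retina under glaucoma, Tubb3 measured 78.6 and 123 CPM at 3D, 109.5 and 114.5 CPM at 2W and 101 and 112 CPM at 6W, below the naïve 149 and 132 CPM in all 6 pools. The log2 fold changes were -0.51, -0.36 and -0.41 (edgeR adjusted p = 0.746, 0.793 and 0.865). Tubb3 was not alone in this. At 2W 9 of 10 isotypes were lower than naïve, 8 of them in both pools. Unadjusted edgeR p was then below 0.05 for 5 isotypes, with log2 fold changes from -0.45 (Tubb2b) to -0.37 (Tuba1b), but not for Tubb3 (0.0825). At 3D and 6W the counts at an unadjusted p below 0.05 were 3 and 0. The RGC sum was 286 and 504 FPKM at 3D, 511 and 446 FPKM at 2W and 465 and 518 FPKM at 6W, and the female 3D pool was lowest in both Tubb3 and this sum. Between 6W and 3D of glaucoma edgeR called 0 isotypes in every tissue, with 1 in UON, 3 in MON and 0 in retina at an unadjusted p below 0.05 and 0 by DESeq2, where 0%, 0% and 0.0129% of all genes were called.

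In UON under glaucoma edgeR called 0 of 10 isotypes at each time, with 1, 8 and 2 at an unadjusted p below 0.05 at 3D, 2W and 6W. At 2W all 10 were below naïve UON in both pools, with log2 fold changes from -1.66 (Tubb3) to -0.42 (Tubb4b) and an edgeR adjusted p of 1. Tubb3 measured 16.8 and 20.7 CPM against 58.8 and 63.8 CPM, and Tuba1a 611 and 868 CPM against 1492 and 1587 CPM. The summed FPKM of the 10 genes was 748 and 1010, against 1451 and 1587 in naïve UON, and the male pool was the shallowest library of the series (16.2 M counts). In these pools oligodendrocyte markers summed to 4370 and 7160 FPKM against 11700 and 8340 FPKM in naïve UON, and RGC markers to 65.7 and 54.9 FPKM against 76.1 and 104 FPKM, both lower than in either naïve pool. Astrocyte markers summed to 6290 and 6280 FPKM against 6440 and 7170 FPKM. At 6W all 10 were above naïve in both pools, from 0.15 (Tubb5) to 0.71 (Tubb2a). At 3D the pools split, Tubb4a measuring 961 CPM in the female and 234 CPM in the male pool and Tubb3 184 and 46.2 CPM, with oligodendrocyte sums of 18300 and 7890 FPKM. The part of these markers was not tested.

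Crush and glaucoma were compared directly at 3D and 2W within each tissue, and edgeR called 0 of 60 values, with 16 at an unadjusted p below 0.05. In UON at 2W all 10 isotypes had a higher mean after crush. Tubb3 differed most (log2 difference 1.81, edgeR adjusted p = 0.404; 68.1 and 64.7 CPM against 16.8 and 20.7 CPM). Tubb2b (1.80, edgeR adjusted p = 0.109; 108 and 140 CPM against 27.6 and 43.65 CPM) and Tubb2a (1.46, edgeR adjusted p = 0.122; 379 and 494 CPM against 145 and 167 CPM) had the lowest adjusted p. None of these pools overlapped. edgeR called 0.0418% of all genes there, DESeq2 called Tubb2a and Tubb2b (1.28% of all genes) and 1 fit over all 36 libraries called these and Tubb3 (1.59%). In MON at 3D Tubb5 was higher after crush than in glaucoma by 1.27 (edgeR adjusted p = 0.357; 373 and 487 CPM against 277 and 110 CPM), a difference called by DESeq2, where 1.33% of all genes were called and 0.0162% by edgeR. The log2 difference was 2.05 without the female glaucoma pool (edgeR adjusted p = 0.0417) and 0.70 without the male glaucoma pool (edgeR adjusted p = 1). In retina at 2W the mean of Tubb3 was lower after crush than in glaucoma (log2 difference -0.87, edgeR adjusted p = 0.162; 64.4 and 58.7 CPM against 109.5 and 114.5 CPM), and 0.113% of all genes were called. In the remaining comparisons of the injuries, 0% of all genes were called in UON and 0.0081% in retina at 3D, and 0.0485% in MON at 2W.

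Across the 36 libraries, with each tissue's mean subtracted from log2 CPM, the isotypes varied in groups. Tuba1b and Tuba1c (Pearson r = 0.95), Tubb4b and Tuba1c (0.918) and Tubb2a and Tubb2b (0.908) were the closest, and the first and last of these are the near-copies with shared windows. Tubb3 was nearest to Tubb4a (0.818), Tubb5 to Tuba1b (0.895), and Tubb6 stood apart, with at most 0.509 to any other isotype. Outside the family, the genes most like Tubb5 were Ccne2 (0.885), a cyclin of the G1/S transition, Ran (0.871), the nuclear transport GTPase, and the histone gene Hist1h2ao (0.861). Those most like Tubb4a were Tmeff2 (0.894), B3galt5 (0.881) and Efnb3 (0.874), and those most like Tubb3 were Anks1b (0.796), Tulp4 (0.793) and Acot7 (0.79). Within the 12 retina libraries, Fkbp1b (0.965), Rgs4 (0.963), a regulator of G-protein signalling, and Sult4a1 (0.962) were most like Tubb3. These coefficients describe libraries that share depth, groups and scaling, and the genes were picked as the highest among all, so no test is given.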

How the data were processed

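RNA-seq data came from 36 libraries of retina, UON and MON. According to the study's methods, the authors aligned 150-base paired reads from an ultra-low input kit to GRCm38 with HISAT2 2.2.1 and quantified genes of GENCODE M25 with StringTie 1.3.0. The estimated counts per gene, and the FPKM and TPM values that StringTie scales by length and library size, were used as the authors deposited them, TPM serving only to recompute shares, and whether counting used strand is not given in the sources used here. Counts were rounded to whole numbers and scaled by TMM, and genes were kept by edgeR's filterByExpr (minimum count 10, total 15). Each fit was an edgeR 4.0.16 quasi-likelihood test (R 4.3.3) with group and pool sex as terms, following the study's model, and Benjamini-Hochberg adjustment over all genes tested (19988 to 26731). A call needed an adjusted p below 0.05 and a log2 fold change beyond 1, except for differences in response between tissues, which used the adjusted p alone. DESeq2 1.42.0, the study's tool, limma 3.58.1, other normalization, no filter, no block, 1 fit over 36 libraries and leaving out each library were alternatives. Shares of all genes called by DESeq2 were over every gene with any count (37507 to 44838 in the comparisons given), a wider base than for edgeR. Total counts per library ranged from 16.2 M to 78.1 M (M for mega). The naïve, MON crush and joint UON and MON crush fits were run on simulated data, with a spread set beforehand and not estimated from these data. That run checks the code and does not show how often calls are right at the spread of these data.

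The genes named in every comparison were the 10 isotypes, and for likeness the 3 genes with the highest Pearson r of log2 CPM (prior count 2) per isotype. Partner genes were taken from lists, with members and lists chosen with earlier results of these data known. Pool sex entered as a block because the 3 naïve tissues came from the same mice. Over 16994 genes, the correlations of the deviations of same-sex pools were 0.01 to 0.02 in naïve tissues and -0.22 to 0.14 in the other fits. Coding sequences and shared 150-base windows were computed from GENCODE M21 transcripts.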

Additional observations from a re-analysis of the deposited data

Results flagged for a closer look

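The response of Tubb5 at 3D after crush differed between MON and retina by 1.97 on the log2 scale (edgeR adjusted p = 0.0324 for the interaction of tissue and treatment), which is why it is listed here. With 2 libraries per group, no library could be tested as standing apart from its group.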

How the results depend on the processing

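Counts of isotype calls under the stated test were 10 of 30 for naïve tissues, 4 of 60 for crush, 0 of 60 for late against early times, 0 of 90 for glaucoma, 0 of 60 for crush against glaucoma and 1 of 150 for differences between tissues. DESeq2 gave 7 for crush, 8 for late against early, 3 for glaucoma, 3 for crush against glaucoma and 11 for differences between tissues. One fit over all 36 libraries gave 7, 3 and 0 for late against early, crush against glaucoma and differences between tissues. Without the replicate block the counts were 10, 5, 6, 0, 0 and 2 in the order of the opening sentence. Scaling by DESeq2's size factors gave 2 for differences between tissues, no count filter gave 1 for glaucoma, and limma on FPKM with no filter gave 0 for crush. Leaving out 1 library gave 8 to 11 for naïve tissues, 1 to 6 for crush, 0 to 7 for late against early, 0 to 0 for glaucoma, 0 to 2 for crush against glaucoma and 0 to 2 for differences between tissues. As shares of summed CPM in place of FPKM, Tuba1a made up 34.9% and Tubb4a 40.9% of naïve MON, and Tuba1a 29.2% and Tuba1b 27.8% of naïve retina. For single isotypes, alternatives were tallied only for combinations of isotype and comparison that edgeR or DESeq2 had called. Of these values, 349 kept direction and side of the threshold, 70 passed where the stated test did not, 25 were lost and 0 changed sign. DESeq2 was itself 1 of the alternatives, so combinations called only by DESeq2 added to the 70 by selection. The tally does not cover results called by neither tool. With 2 pools per group, a p above the threshold does not show that levels were equal.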
